A study of Mus musculus with 3 samples.

Results

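The mouse major histocompatibility locus was taken as the regions on chromosome 17 that start between positions 33900000 and 36100000 of GRCm38, a window of 2.2 Mb. The deposited tables held 302 such regions of 251946 for preosteoclasts against macrophages, 264 of 226632 for mature osteoclasts against preosteoclasts, and 75 of 69337 for mature osteoclasts against macrophages. Counting each position once, the locus held 505 of 432641 listed regions. Among the listed regions, members were chosen by position, with earlier results of these data known. The tables list only regions with a large difference in methylation between libraries. Members are therefore not an unselected sample of the locus.

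Methylation of CG cytosines was read genome-wide after bisulfite treatment, which turns unmethylated cytosines into bases read as T and spares methylated ones. Non-adherent bone marrow cells from C57BL/6 mice aged 11 weeks were collected after 24 h in culture and then held for 72 h with 50 ng/mL of the macrophage growth factor M-CSF, giving bone marrow macrophages (BMM). M-CSF at 30 ng/mL with the cytokine RANKL at 100 ng/mL was given to such cells for 24 h to obtain preosteoclasts (pOC), and for 72 h or longer to obtain mature osteoclasts (mOC). Each stage had 1 library, so no difference has a replicate check, and the number of animals behind a library was not given in the sources used here. A level is the methylated reads of a region divided by all its reads, summed over its cytosines. Brackets hold exact Clopper-Pearson 95% intervals, which cover counting error only. For a level, both the interval and the read number beside it count a read once per cytosine covered. Such intervals are too narrow where reads cover several cytosines, so intervals that do not overlap are a description and not a test.

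The locus carries the genes that let cells display peptides to T cells. Class I molecules present peptides from the cytosol to CD8+ T cells, after the proteasome has cut them and the TAP transporter has moved them into the endoplasmic reticulum. Class II molecules, made mainly by macrophages, dendritic cells and B cells, present peptides from endosomes to CD4+ T cells, and the chaperones H2-M and H2-O edit which peptides they hold. Between the class I and class II genes lies the class III stretch, with complement components, the tumour necrosis factor cluster, heat shock genes and many housekeeping genes. Macrophages and osteoclasts come from the same myeloid precursors, and macrophages present antigen.

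In the locus as in the genome, most levels were below those of BMM in pOC, and above those of pOC in mOC. In pOC against BMM, 287 regions (95.03%, interval 91.9 to 97.2) were lower and 15 (4.97%) higher in pOC, where the whole table gave 92.9% lower and 7.06% higher. In mOC against pOC, 248 regions (93.9%, interval 90.3 to 96.5) were higher and 16 (6.06%) lower in mOC, against 89.1% and 10.9% in the whole table and 89.9% higher over the rest of chromosome 17. In mOC against BMM, 52 of 75 regions (69.3%, interval 57.6 to 79.5) were lower and 23 (30.7%) higher in mOC, against 58.9% and 41.1% in the whole table. The whole-table share lay inside the counting interval of the locus share in the first and the last comparison. The share for mOC against pOC lay above the whole table's, with no replicate to set that difference against. Every listed region differs by 20 percentage points or more and has no fewer than 4 cytosines and 16 reads, so a gene without a region is not shown to be unchanged.

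**Figure D1:**
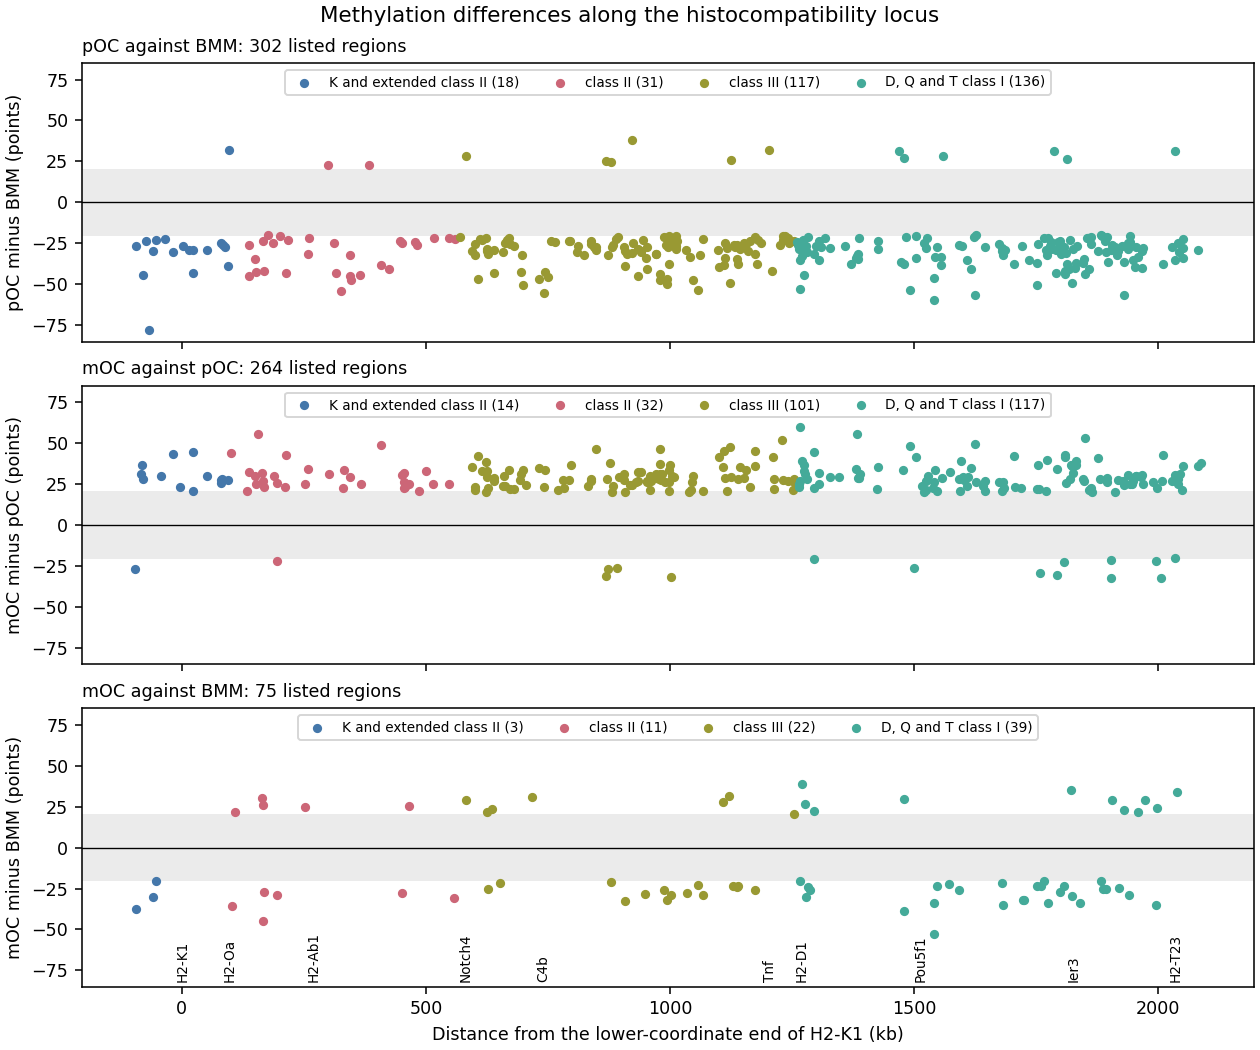
Difference in methylation level (percentage points, later stage minus earlier) of each listed region against its distance from the lower-coordinate end of H2-K1 (kb), for pOC against BMM (302 regions), mOC against pOC (264) and mOC against BMM (75). Colours give the 4 stretches of the locus, the grey band holds differences under 20 points that the tables leave out, and names mark gene positions. Points lie mostly below 0 in the upper panel, mostly above 0 in the middle one and on both sides in the lower one.

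Summed over the locus regions of each table, the read-weighted level was 76.5% in BMM and 48.4% in pOC, 46.0% in pOC and 73.4% in mOC, and 66.5% in BMM and 56.5% in mOC. The median difference in size was 28.5, 28.1 and 27.0 points, where the whole tables had 29.3, 27.7 and 27.5. A region of the pOC against BMM table had a median of 42 reads in BMM and 39 in pOC, from 16 to 317, or about 6 reads per cytosine. Fisher's exact test of the reads of 2 libraries, two-sided and adjusted over the whole table by Benjamini-Hochberg, passed 0.05 in 279 of 302 regions (92.4%, against 91.3% of all listed), in 186 of 264 (70.5%, against 64.8%) and in 70 of 75 (93.3%, against 93.8%). These tests run over regions already listed for a large difference and count 1 read once per cytosine it covers. In mOC against pOC 41 of the 264 regions had an authors' p-value above 0.05, against 0 in each of the other comparisons. Counts, densities and passing shares are therefore not directly comparable between the comparisons. With that p-value at most 0.05, 212 regions were higher and 11 lower in mOC than in pOC. Reads were also reduced to an estimate of 1 count per read for a strand and region, called reads counted once below. With it, 55, 29 and 2 regions had an unadjusted p of 0.05 or less by Fisher's exact test and 0 in each table passed after adjustment. The estimate takes each read to span all cytosines of its strand, so it is too strict where reads span fewer.

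The density of listed regions was uneven along the locus. With pOC against BMM, the window held 137 regions per Mb and the rest of chromosome 17, between its first and last listed region, 112 per Mb. The stretch with H2-K1 and the extended class II genes had 18 regions (93.6 per Mb), the class II stretch from H2-Oa to Notch4 had 31 (65.7 per Mb), the class III stretch to Ddx39b had 117 (170 per Mb), and the remaining stretch with H2-D1 and the Q and T class I genes had 136 (161 per Mb). In this table class II was the sparsest of the 4 and class III the densest. The same held in mOC against pOC, with 72.8, 67.8, 146.5 and 138 per Mb in the 4 stretches. In mOC against BMM the order differed, over few regions. The H2-K1 and class II stretches had 15.6 and 23.3 per Mb (3 and 11 regions). The class III and H2-D1 stretches had 31.9 and 46.1 per Mb (22 and 39 regions). The number of CGs in each stretch was not analysed here. Of 130 annotated protein-coding genes, 86 held a region in at least 1 table: 9 of 16, 14 of 19, 38 of 57 and 25 of 38 in the 4 stretches. In the 4 stretches 94.4%, 93.5%, 94.9% and 95.6% of regions were lower in pOC, with overlapping intervals.

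**Figure D2:**
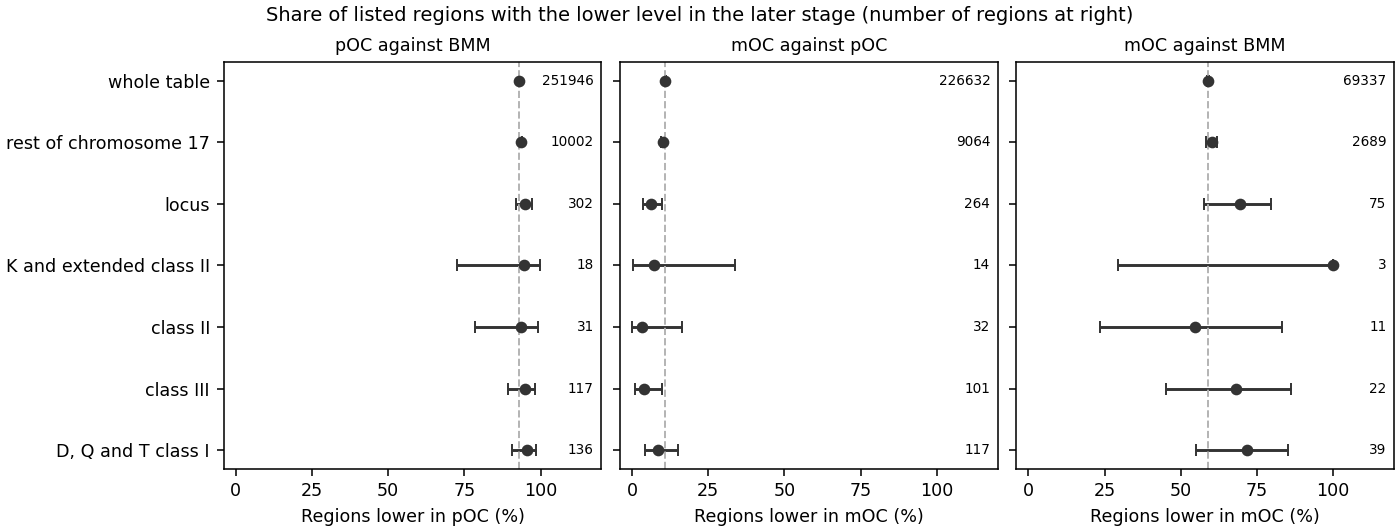
Share of listed regions with the lower level in the later stage (%), with exact 95% intervals, for the whole table, the rest of chromosome 17, the locus and its 4 stretches; the number of regions stands at the right of each row and the dashed line is the whole table. Shares for the 4 stretches lie at 93.5 to 95.6% in pOC against BMM and at 3.13 to 8.55% in mOC against pOC, and their intervals in mOC against BMM are wide.

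Start sites were rarely covered by a listed region. RefSeq windows from 250 bases before to 50 after a start (GRCm38.p6) were at hand for 168 starts of 130 genes of the locus, and 1 of the 302 regions of pOC against BMM (0.331%) touched one, as did 0.354% of the whole table. That region lay at the start of H2-Oa, the alpha chain of the H2-O chaperone that restrains peptide exchange on class II molecules. In mOC against pOC 1 of 264 regions touched a window, that of the predicted gene Gm32252, and in mOC against BMM 0 of 75 did. Locus regions lay nearer to starts than those of the whole table, so the alike shares do not compare a like density of starts. In pOC against BMM the median distance to a start was 5692 bp in the locus and 28141.5 bp in the whole table. Within 1 kb of a start lay 19 of the 302 regions (6.29%), against 1.92%. The 2 overlapped windows are shown with those of H2-D1 and H2-K1, classical class I genes, and H2-Eb1, the beta chain of the class II molecule I-E, so that their CG content can be compared. Sequences run 5′ to 3′ on the gene's strand, and capitals mark CG dinucleotides.
H2-Oa, chr17:34092129-34092428, plus strand: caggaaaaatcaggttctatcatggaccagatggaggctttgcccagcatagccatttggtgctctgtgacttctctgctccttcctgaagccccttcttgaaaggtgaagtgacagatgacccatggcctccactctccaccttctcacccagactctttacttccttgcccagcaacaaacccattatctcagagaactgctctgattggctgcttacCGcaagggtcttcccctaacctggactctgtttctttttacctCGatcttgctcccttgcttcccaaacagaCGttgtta
Gm32252, chr17:35420065-35420364, plus strand: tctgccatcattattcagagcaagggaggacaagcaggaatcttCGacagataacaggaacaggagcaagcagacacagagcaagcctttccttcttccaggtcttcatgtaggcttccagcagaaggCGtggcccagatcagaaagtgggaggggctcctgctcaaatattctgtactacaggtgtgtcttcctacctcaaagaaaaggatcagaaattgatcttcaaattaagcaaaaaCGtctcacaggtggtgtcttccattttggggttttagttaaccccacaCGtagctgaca
H2-D1, chr17:35262844-35263143, plus strand: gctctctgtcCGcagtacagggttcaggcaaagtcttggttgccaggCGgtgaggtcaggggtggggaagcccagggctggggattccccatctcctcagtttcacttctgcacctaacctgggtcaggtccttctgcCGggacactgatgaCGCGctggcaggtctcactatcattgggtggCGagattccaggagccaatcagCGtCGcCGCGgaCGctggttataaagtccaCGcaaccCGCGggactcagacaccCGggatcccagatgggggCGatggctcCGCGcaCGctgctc
H2-K1, chr17:34000298-34000597, minus strand: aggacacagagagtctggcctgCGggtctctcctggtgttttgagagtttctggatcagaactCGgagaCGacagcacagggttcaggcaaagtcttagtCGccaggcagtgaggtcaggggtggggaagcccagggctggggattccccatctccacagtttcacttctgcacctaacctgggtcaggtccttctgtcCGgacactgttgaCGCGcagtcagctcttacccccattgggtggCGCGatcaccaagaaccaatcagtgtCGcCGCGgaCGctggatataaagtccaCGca
H2-Eb1, chr17:34305617-34305916, plus strand: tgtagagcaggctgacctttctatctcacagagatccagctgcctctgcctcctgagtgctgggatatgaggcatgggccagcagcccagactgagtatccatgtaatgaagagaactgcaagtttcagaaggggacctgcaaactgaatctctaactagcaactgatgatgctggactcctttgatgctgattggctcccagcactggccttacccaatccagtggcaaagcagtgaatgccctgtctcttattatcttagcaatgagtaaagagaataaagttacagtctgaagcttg

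The class I windows shown hold more CGs than the class II windows shown. H2-D1 has 19 CGs and H2-K1 14, against 3 for H2-Oa, 4 for Gm32252 and 0 for H2-Eb1. The median is 7 over all 32851 windows and 12.5 over the 168 locus windows, so H2-K1 is near the median of the locus. Class I is not uniform: the windows of H2-Q2 and H2-T23 have 4 and 5 CGs. The class II gene H2-DMa has 29 at the first of its listed starts and 0 at the other. The H2-DMa window with 29 CGs also overlaps the annotated span of Brd2, which is no class II gene, so its CGs belong to either gene. A window without CGs, such as that of H2-Eb1, could be touched only by a region whose CGs lie outside it. On either strand, the letters GGATTCC, the core of the site that NF-κB proteins bind in class I promoters, stand in both the H2-D1 and the H2-K1 window and in 16 of 168 locus windows (9.52%), against 3.79% of all windows. The letters ATTGG, the core of the Y box of class II promoters, searched likewise, stand in the H2-Oa, H2-D1, H2-K1 and H2-Eb1 windows and in 37.4% of all windows, 42.3% in the locus. A match is a description of the letters alone.

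Of 15 class I genes found in the annotation, 7 held a region in pOC against BMM and all 9 of their regions were lower in pOC; in mOC against pOC 8 held one and all 11 regions were higher in mOC; in mOC against BMM 1 held one. With 92.9% of all listed regions lower in pOC and 89.1% higher in mOC than in pOC, such counts, here and in the groups that follow, are near the background. H2-Q2, H2-Q3, H2-Q5, H2-Q6, H2-Q7 and H2-T23 held no region in any table. Reads from near-identical class I genes may be placed in the wrong copy, so values for these genes are uncertain.

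H2-D1, which encodes the classical class I heavy chain H-2D, had the region with the smallest p of the locus by Fisher's exact test on all reads near it, though not by reads counted once or by size of difference. The region at 35261601 to 35261800, 1394 bp upstream of the start and outside the gene, was at 79.7% in BMM (68.8 to 88.2, 74 reads), 26.9% in pOC (15.6 to 41.0, 52 reads) and 86.8% in mOC (76.4 to 93.8, 68 reads). The pOC interval overlaps neither of the others, while BMM and mOC overlap. Fisher's exact test gave p = 4.92e-09 for pOC against BMM and 2.18e-11 for mOC against pOC. Counting reads once, the exact p was 0.0092 and 0.0045.

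Other regions near the start went in the same directions between neighbouring stages. So did most regions of the whole tables, with 92.9% lower in pOC than in BMM and 89.1% higher in mOC than in pOC. The counts near H2-D1 for these 2 comparisons are near those shares. Within 10 kb of the H2-D1 start, a distance chosen after the values were seen, 9 of 9 regions were lower in pOC than in BMM and 9 of 9 higher in mOC than in pOC, with 4 positions common to both tables. In mOC against BMM 2 of 3 were higher and 1 lower, the last at 35261201 to 35261400 with 88.6% in BMM, 53.7% in pOC and 68.2% in mOC. The region inside the gene at 35265201 to 35265400 was at 78.6% in BMM, 45.7% in pOC and 84.8% in mOC, with 42, 46 and 33 reads. Another one inside the gene, at 35266801 to 35267000, was at 32.0% (14.9 to 53.5) in BMM and 70.8% (48.9 to 87.4) in mOC, the greatest rise of mOC over BMM in the locus. These 2 regions of the gene thus differed in BMM, with intervals that do not overlap, and were at like levels in mOC.

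Depth near H2-D1 was uneven. The regions at 35256201 and 35257201, between Ddx39b and H2-D1, had 253 and 281 reads in BMM over 8 and 6 cytosines, or 31.6 and 46.8 reads per cytosine, against a locus median of 6.18. Over the locus 13 of 302 regions (4.30%) had more than 15 reads per cytosine in a library, against 2.21% of the whole table, and 10 of the 13 lay in the H2-D1, Q and T stretch. Whether reads of other class I copies add to them was not tested. Without regions of that depth, 274 regions were lower and 15 higher in pOC.

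**Figure D3:**
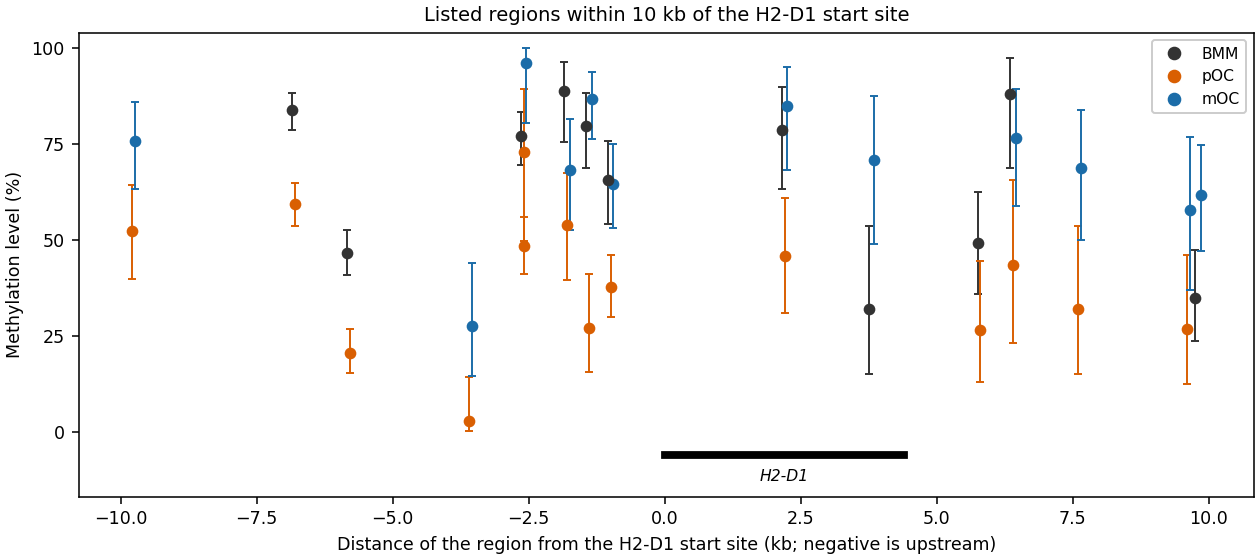
Methylation level (%) of each listed region within 10 kb of the H2-D1 start in BMM (black), pOC (orange) and mOC (blue), with exact 95% intervals, against its distance from the start (kb). The bar marks the gene. A region listed in 1 table shows 2 libraries, and at about 2.6 kb upstream a 600 bp and a 200 bp region overlap. At 1.39 kb upstream pOC stands at 26.9% between 79.7% and 86.8%.

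The other classical gene, H2-K1, encoding H-2K, had fewer regions near it. Within 10 kb of its start there were 2 regions in pOC against BMM, 1 in mOC against pOC and 0 in mOC against BMM. Inside the gene, 33998601 to 33998800 was at 51.1% in BMM (35.8 to 66.3, 45 reads) and 24.2% in pOC (11.1 to 42.3, 33 reads), and these intervals overlap. The class I relative H2-K2 was at 80.0% in BMM, 50.0% in pOC and 93.5% in mOC at 33977201 to 33977400, with 40, 26 and 46 reads. The mOC level there lay above the BMM level by 13.5 points, a difference whose intervals overlap.

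Among the non-classical class I genes, H2-Q1 was already low in BMM. Its region at 35322601 to 35322800 was at 32.3% in BMM (16.7 to 51.4, 31 reads), 4.17% in pOC (0.105 to 21.1, 24 reads) and 33.3% in mOC (17.3 to 52.8, 30 reads). H2-Q4 at 35381001 to 35381200 was at 79.3%, 45.0% and 73.7%, with 29, 20 and 19 reads and overlapping intervals. H2-T22, a ligand of some gamma-delta T cells, was at 83.5% in BMM (76.0 to 89.3, 133 reads) and 53.3% in pOC (37.9 to 68.3, 45 reads) at 36037001 to 36037200. H2-T24 was at 20.7% in pOC (13.6 to 29.5, 111 reads) and 63.6% in mOC (49.6 to 76.2, 55 reads) at 36004601 to 36004800. Both T genes overlap the transcript A930015D03Rik, so their regions belong to either.

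**Figure D4:**
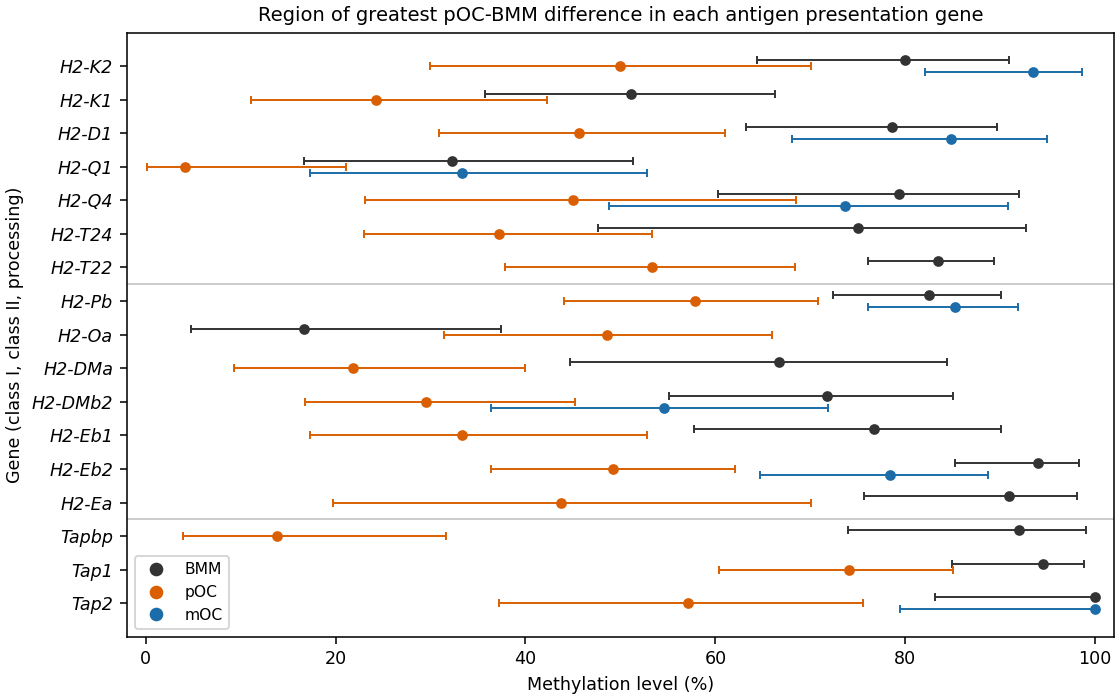
Methylation level (%) with exact 95% intervals in the region of greatest pOC-BMM difference of each class I gene (upper block), class II gene (middle) and processing gene (lower) with a listed region, in BMM (black), pOC (orange) and, where listed at the same position, mOC (blue). H2-Oa is the member with pOC above BMM, at 48.6% and 16.7%, and Tapbp has the widest separation, 92.0% and 13.8%.

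Of 11 class II genes in the annotation, 7 held a region in pOC against BMM, 6 with regions lower and 1, H2-Oa, with a region higher in pOC. In mOC against pOC 5 held regions, all 8 higher in mOC. The main class II pair of this strain, H2-Aa and H2-Ab1, which together form I-A, held no region in any table, nor did H2-Ob, the partner of H2-Oa. In mOC against BMM the longest stretch of the locus without a region ran for 198600 bp from 34248801 to 34447400 and covered H2-Ab1, H2-Aa, H2-Eb1, H2-Eb2 and H2-Ea.

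The H2-Oa region, 34092201 to 34092400, lies inside the printed H2-Oa window and covers 2 of its 3 CGs. It was at 16.7% in BMM (4.74 to 37.4, 24 reads) and 48.6% in pOC (31.4 to 66.0, 35 reads), and no table lists it with mOC. Fisher's exact test gave p = 0.0143, adjusted 0.0227, and 0.121 with reads counted once, and the intervals overlap. The gene BC051537 is annotated over the same region.

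The genes of H2-M, which loads peptides onto class II molecules, held several regions. H2-DMa was at 73.5% in BMM, 47.2% in pOC and 79.4% in mOC at 34133201 to 34133400, with 34, 36 and 34 reads. H2-DMb2 was at 85.9% (74.98 to 93.4, 64 reads), 51.4% (39.2 to 63.6, 70 reads) and 81.2% (69.9 to 89.6, 69 reads) at 34146401 to 34146600, so that pOC lay apart from both other libraries. H2-DMb1 was low in BMM and pOC: at 34159601 to 34159800 it was at 15.4% in BMM (5.86 to 30.5, 39 reads) and 45.5% in mOC (28.1 to 63.6, 33 reads). Over the 400 bp from the same start, H2-DMb1 was at 18.03% in pOC and 50.0% in mOC, with 61 and 66 reads.

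Genes of the I-E group, H2-Eb1, H2-Eb2 and H2-Ea, are given by their regions of greatest difference between pOC and BMM. Their BMM levels there ran from 76.7% to 93.9%, where the median over all locus regions of that comparison was 81.25%. High BMM levels are thus not particular to these genes. H2-Eb2 was at 93.9% in BMM (85.2 to 98.3, 66 reads), 49.2% in pOC (36.4 to 62.1, 63 reads) and 78.4% in mOC (64.7 to 88.7, 51 reads) at 34339801 to 34340000, with p = 8.67e-09 for pOC against BMM by Fisher's exact test and 0.000567 with reads counted once. H2-Eb1 was at 76.7% in BMM and 33.3% in pOC at 34311001 to 34311200, with 30 reads in both libraries. H2-Ea, the alpha chain gene that mice of this strain do not express, was at 90.9% in BMM and 43.8% in pOC at 34342201 to 34342400, with 33 and 16 reads. H2-Pb, a class II beta relative, was at 82.5%, 57.9% and 85.2% in the 3 libraries at 34075601 to 34075800, with 80, 57 and 88 reads.

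Of the 5 genes for antigen processing, 3 held regions in pOC against BMM, all 5 lower in pOC, and 3 in mOC against pOC, 4 regions higher and 1 lower in mOC. Tapbp encodes tapasin, which holds class I molecules at the TAP transporter, and had the greatest difference of the locus. At 33927801 to 33928000 it was at 92.0% in BMM (74.0 to 99.02, 25 reads) and 13.8% in pOC (3.89 to 31.7, 29 reads), a difference of 78.2 points (Newcombe 95% interval 54.4 to 88.3). Fisher's exact test gave p = 7.41e-09, and 0.00288 with reads counted once. No table lists this region with mOC.

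The genes of the TAP subunits held regions of both directions between pOC and mOC. Tap2 was at 100% in BMM (83.2 to 100, 20 reads), 57.1% in pOC (37.2 to 75.5, 28 reads) and 100% in mOC (79.4 to 100, 16 reads) at 34209601 to 34209800. Tap1 at 34190601 to 34190800 was at 68.2% in pOC and 94.0% in mOC, with no BMM level listed. Another Tap1 region lay 400 bp further on, 34191001 to 34191200, and was at 90.9% in BMM (70.8 to 98.9, 22 reads), 84.2% in pOC (68.7 to 94.0, 38 reads) and 62.1% in mOC (42.3 to 79.3, 29 reads). Psmb9, an immunoproteasome subunit that shares its promoter stretch with Tap1, was at 66.7% in pOC and 96.6% in mOC at 34185201 to 34185400, while Psmb8 held no region. The difference between Tap1 regions was not tested, and their intervals in mOC do not overlap.

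The butyrophilin-like genes, relatives of B7 costimulators, were in the same stretch. Of 7 members, 6 held regions in pOC against BMM, 8 lower and 1 higher. The higher one, Btnl1 at 34380001 to 34380200, had 0 of 20 reads methylated in BMM (up to 16.8%) and 22.9% in pOC (12.03 to 37.3, 48 reads). BC051142 had a position at 34403601 to 34403800 with 75% in BMM, 37.0% in pOC and 85.7% in mOC, and another at 34460401 to 34460600 with 65.6%, 66.3% and 91.2%. At the former pOC was the lowest library, and at the latter BMM and pOC were alike in level and mOC higher.

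In class III, complement genes and their neighbours had 21 regions in pOC against BMM in 8 of 11 members, 19 lower and 2 higher in pOC. C4b, complement component 4 of the classical pathway, was at 95.9% in BMM (89.9 to 98.9, 98 reads), 53.2% in pOC (38.1 to 67.9, 47 reads) and 87.0% in mOC (76.7 to 93.9, 69 reads) at 34738801 to 34739000, with p = 1.57e-09 for pOC against BMM by Fisher's exact test and 0.0223 with reads counted once. Its duplicate C4a was at 48.9% in BMM and 16.7% in pOC at 34818401 to 34818600, with 45 and 30 reads, and reads of the 2 copies may be exchanged. Skiv2l, an RNA helicase of the cytoplasmic exosome, was at 80.3%, 51.0% and 97.6% at 34843201 to 34843400, and Tnxb, an extracellular matrix protein, at 85.3%, 35% and 68.8% at 34695201 to 34695400. In C4b, Skiv2l and Tnxb pOC was the lowest of the 3 libraries.

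C2, the protease that joins C4 in the classical pathway, held regions in both directions. At 34864801 to 34865000 it was at 75% in BMM (47.6 to 92.7, 16 reads), 100% in pOC (83.2 to 100, 20 reads) and 68.8% in mOC (50.0 to 83.9, 32 reads). This was 1 of 2 positions in the locus that rose and then fell, and its BMM and pOC intervals overlap. At 34875001 to 34875200 C2 was at 63.0% in BMM and 87.5% in pOC, with 27 and 32 reads.

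In the tumour necrosis factor cluster, Tnf, Ltb, Lst1 and Ager held no region in any table. Of 9 members of this group 5 held one in pOC against BMM, 9 regions lower and 1 higher. The higher one lay in Notch4, a Notch receptor found mainly in endothelium, at 34577001 to 34577200: it was at 30.3% in BMM (15.6 to 48.7, 33 reads), 58.9% in pOC (45.0 to 71.9, 56 reads) and 59.4% in mOC (40.6 to 76.3, 32 reads). It was 1 of 2 positions in the locus listed as higher than BMM in both later stages, the other being intergenic at 35475601 to 35475800 with 37.9%, 65.0% and 67.9%. Lta, encoding lymphotoxin alpha, was at 91.7% in BMM and 50.0% in pOC at 35204001 to 35204200, with 24 and 26 reads. Nfkbil1, an inhibitor-like protein of the NF-κB family, was at 32.0% in pOC and 84.0% in mOC at 35225601 to 35225800, with 25 reads in both.

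A region near Tnf went the other way. The region at 35198401 to 35198600 lies between the spans of Ltb and Tnf, 767 bp from the lower-coordinate end of Tnf, and touches no start window. Its level was 11.1% in BMM (2.35 to 29.2, 27 reads) and 42.9% in pOC (24.5 to 62.8, 28 reads). Tnf encodes the cytokine TNF, which acts with RANKL on osteoclast precursors. The intervals overlap and no table lists the region with mOC.

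Osteoclasts use acid transport and lysosomes to resorb bone. Use by osteoclasts of the 4 listed genes with such roles was not examined here. All 4 held regions in pOC against BMM, and all 12 regions were lower in pOC, as were 92.9% of all listed regions. In mOC against BMM 2 regions of this group were lower and 2 higher in mOC. Neu1, the lysosomal sialidase, was at 90.0% in BMM, 60.0% in pOC and 92.3% in mOC at 34936601 to 34936800. Atp6v1g2, a subunit of the proton pump V-ATPase, was at 85%, 63.5% and 90.5% at 35238201 to 35238400. Ppt2, a lysosomal thioesterase, was at 88.6% (73.3 to 96.8, 35 reads), 45.6% (32.4 to 59.3, 57 reads) and 74.4% (58.8 to 86.5, 43 reads) at 34635201 to 34635400. Clic1, a chloride channel protein, was at 83.3% in BMM and 30.0% in pOC at 35053001 to 35053200, with 18 and 20 reads. For Ppt2 the pOC interval stood apart from that of BMM and met that of mOC.

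Of the chromatin and transcription genes, 5 of 11 held regions in pOC against BMM, all 9 lower, and 5 held regions in mOC against pOC, all 12 higher. Ring1, Rxrb, Brd2, Zbtb12, Zbtb22 and Pou5f1 held none in any table. Daxx, a histone H3.3 chaperone, was at 48.0% in BMM (27.8 to 68.7, 25 reads), 3.85% in pOC (0.0973 to 19.6, 26 reads) and 32.0% in mOC (14.9 to 53.5, 25 reads) at 33915401 to 33915600. Ehmt2, which encodes the histone H3 lysine methyltransferase G9a, was at 90.6% in BMM (79.3 to 96.9, 53 reads) and 51.8% in pOC (38.0 to 65.3, 56 reads) at 34904001 to 34904400. The BMM and pOC intervals did not overlap in either gene, and the mOC interval of Daxx met both.

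Heat shock genes split by member. Hspa1l, a testis-enriched relative of inducible Hsp70, held regions, and the inducible Hspa1a and Hspa1b did not. Hspa1l was at 97.6% in BMM (87.4 to 99.9, 42 reads), 50.0% in pOC (30.6 to 69.4, 28 reads) and 87.5% in mOC (67.6 to 97.3, 24 reads) at 34974201 to 34974400. An intergenic region beyond, 2710 bp from Lsm2 at 34988601 to 34988800, was at 90.0% in BMM (82.4 to 95.1, 100 reads) and 40.0% in pOC (26.4 to 54.8, 50 reads). For Slc44a4, a choline transporter-like gene, 34930201 to 34930400 was at 88.0% in BMM and 42.9% in pOC, whereas 34917801 to 34918000 was at 54.1% (36.9 to 70.5, 37 reads) and 92.0% (74.0 to 99.02, 25 reads). Slc44a4 thus held 2 regions of opposite direction, in each of which the BMM and pOC intervals did not overlap.

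Framework genes that flank the class I blocks, Ddx39b on the proximal side of H2-D1 and the rest distal to it, held 37 regions in 13 of 22 members, 36 lower and 1 higher in pOC. Flot1, a lipid raft scaffold, was at 93.7% in BMM (87.4 to 97.4, 111 reads) and 53.9% in pOC (43.0 to 64.6, 89 reads) at 35825801 to 35826200, the smallest p of that table in the locus (Fisher's exact test, 3.34e-11) and 0.0561 with reads counted once. Gm9573, matched to the older name Muc21, a mucin, was at 66.7% (46.0 to 83.5, 27 reads), 10.3% (2.19 to 27.4, 29 reads) and 60.0% (38.7 to 78.9, 25 reads) at 35620801 to 35621000. In Gm9573 the pOC interval met neither of the others. Dhx16, a splicing helicase, had regions of different order. At 35889401 to 35889600 it was at 92.1% (86.3 to 96.0, 139 reads), 61.8% (50.9 to 71.9, 89 reads) and 67.1% (55.8 to 77.1, 82 reads). At 35890201 to 35890400 Dhx16 was at 53.0%, 31.9% and 60.4%, with 66, 72 and 48 reads.

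Positions listed in 2 or more tables give all 3 libraries. Of the 110 positions in both pOC against BMM and mOC against pOC, 108 (98.2%) were lower and then higher, where the whole series had 95.5% of 82392. The tables share the pOC library, so a low pOC value enters both. Over the 135 positions with 3 levels, the mean was 76.8% in BMM, 48.0% in pOC and 73.6% in mOC, and the median change from BMM to mOC was -1.52 points, 72 positions lying below BMM, 60 above and 3 equal. The median pOC level was 47.1%, 50.3%, 50.0% and 48.6% in the 4 stretches.

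**Figure D5:**
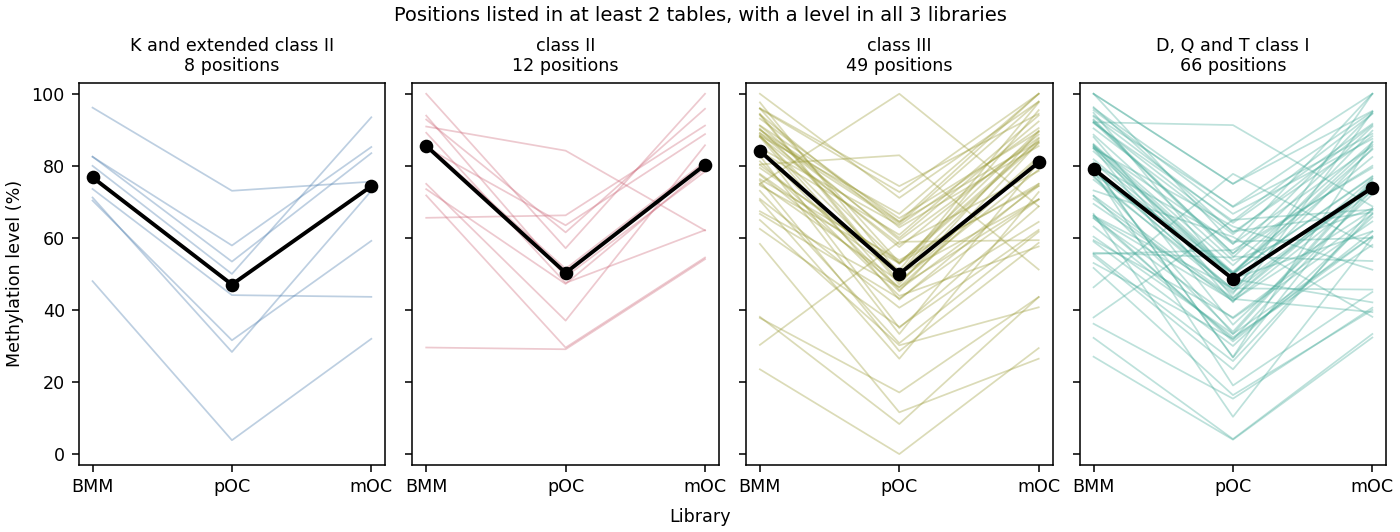
Methylation level (%) in BMM, pOC and mOC of each of the 135 positions with all 3 levels, in the 4 stretches (8, 12, 49 and 66 positions); thin lines are positions and the black line joins the medians. Medians stand at 76.8 to 85.5% in BMM, at 47.1 to 50.3% in pOC and at 73.9 to 81.0% in mOC; positions enter through differences of at least 20 points, so flat ones are absent by construction.

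Some of the positions with all 3 levels did not come back. A further 164 positions were lower in pOC than in BMM and listed in no other comparison, so their mOC level is not known. The share of all pOC losses that was reversed by mOC is therefore not known either. At 15 positions the level was listed as lower than BMM in both later stages and mOC against pOC was not listed, with medians of 84.8% in BMM, 48.6% in pOC and 53.6% in mOC, and 12 of the 15 lay in no gene. The intergenic region at 35132401 to 35132800 was at 65.0% (56.4 to 72.9, 137 reads), 30.2% (21.6 to 39.9, 106 reads) and 40.7% (32.4 to 49.5, 135 reads), so that both later libraries stood apart from BMM. The greatest loss from BMM to mOC, 52.6 points, was at 35536801 to 35537000, 2154 bp from the skin gene Psors1c2, with 94.7% (74.0 to 99.9, 19 reads), 48.6% (31.4 to 66.0, 35 reads) and 42.1% (20.3 to 66.5, 19 reads). At 1 kb from it, 35535801 to 35536000 was at 78.6%, 19.0% and 45.0%. This was the 1 position listed in all 3 tables, lower than BMM in both later stages and higher in mOC than in pOC.

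Other positions changed between pOC and mOC with little before. At 4 positions BMM and pOC were high and mOC lower, among them the Tap1 region given above and D17H6S56E-5 at 34996801 to 34997000 with 80.4%, 82.9% and 51.2%. At 4 others mOC was higher than both, with medians of 55.7%, 55.6% and 85.2%. The intergenic region at 35816801 to 35817000 was at 55.9% (37.9 to 72.8, 34 reads), 54.5% (36.4 to 71.9, 33 reads) and 90.9% (78.3 to 97.5, 44 reads). With no level listed for pOC, Fkbpl, an immunophilin-like gene, was at 21.4% in BMM (12.5 to 32.9, 70 reads) and at 0 of 63 reads in mOC (up to 5.69%) at 34646601 to 34646800. Whether the Fkbpl level changed before or after pOC is therefore not known.

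Cell identity cannot be read from these tables by expression. In pOC against BMM, listed regions lay in 5 of 7 macrophage markers (52 regions), 8 of 8 osteoclast markers (23), 5 of 5 dendritic cell markers (42), 4 of 6 T cell markers (10) and 1 of 6 neutrophil markers (1), all lower in pOC. In 2 of 5 B cell markers 13 regions were lower and 2 higher. Of all regions listed for pOC against BMM, 92.9% were lower in pOC. Gene length and the share of all genes holding a region were not examined, so these counts do not set cell types apart. In mOC against BMM, macrophage markers held 8 lower and 6 higher regions, and B cell markers 5 and 3. Dendritic cell markers held 3 and 2, osteoclast markers 4 and 0, T cell markers 1 and 0, and neutrophil markers none. The part of a changing cell mix in the locus values was not tested, and with 1 library a stage it cannot be told apart from change within cells.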

How the data were processed

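Per the labels, BMM, pOC and mOC were 1 library each. Per the file headers, each deposited table gives, for every region and both libraries, the methylated and total read counts, their ratio as a fraction, how many cytosines it spans, and the authors' p-value. GRCm38 is the build in the submitters' processing notes, which also list FastQC, HISAT2 and StringTie with neither version nor role. Bisulfite aligner and region caller: not given in the sources used here. Table headings name hours and were matched to stages by them. Regions are built of 200 bp bins, and a minimum of 10 reads removed none.

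Levels were recomputed from the deposited counts with Clopper-Pearson exact intervals (95%); for differences Newcombe's intervals (95%) are given. Fisher's exact test (two-sided) was run on every region and adjusted over its whole table by Benjamini-Hochberg; it compares 2 libraries, not 2 conditions. A read covering several cytosines is counted several times, so an alternative estimates reads counted once per strand and region (reads times 2 divided by cytosines, rounded). This is an approximation, since single reads are not in the deposited counts. Scripts (python 3.11.15, scipy 1.17.1, numba 0.67.0) were tested on simulated data.

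Genes were assigned by overlap with RefSeq spans of GRCm38.p6 (201 genes in the window), so exons and introns were not placed, and sequences are RefSeq's. The members and the 13 gene lists were chosen with earlier results of these data known; 133 of 142 list entries matched. Named were the 5 regions of greatest difference per stretch and comparison that overlap a gene with a symbol, and for each list member its region of greatest difference. Other regions named, intergenic ones, second regions of a gene and those listed in several tables, were chosen after their values were seen.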

Additional observations from a re-analysis of the deposited data

How the results depend on the processing

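No paired analysis was possible because each stage has 1 library; for the same reason no replicate could be left out. With differences of at least 30 points, the regions lower in pOC numbered 118 and those higher 6 in pOC against BMM, 95 higher and 5 lower in mOC against pOC, and 16 lower and 6 higher in mOC against BMM. With the authors' deposited p-value at most 0.001 these numbers were 58 and 0, 36 and 1, and 1 and 0. With at least 30 reads in both libraries, 185 were lower and 4 higher, 145 higher and 7 lower, and 26 lower and 16 higher in the 3 tables. Fewer regions qualify under these settings by construction.

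The share lower in pOC became 100% in the locus and each stretch at p at most 0.001; at 30 reads it was 97.9% in the locus, 100% in the H2-K1 stretch and 98.6% in class III, and at 30 points 100% in class II. The share lower in mOC against pOC was 2.70% in the locus at p at most 0.001, and 0% in class II and the H2-K1 stretch under all 3 settings and in class III at p at most 0.001. In mOC against BMM 1 region was left at p at most 0.001 (100% lower, in the H2-D1 stretch), and 50% of regions in genes there were lower. In class II the share turned from 54.5% to 25% lower at 30 reads, over 4 regions. At 30 reads the mean difference over the locus in mOC against BMM was -7.52 points, from -9.96. The cause was not tested.

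Restricting the locus to regions in genes or outside class I genes left its shares inside their reported intervals. With reads counted once per strand, 149 named regions that had passed an adjusted p of 0.05 no longer did, and the other 20 passed in neither; the authors' deposited p-value let 14 more pass. Extending genes by 2000 bp moved 15 list counts by over 1.5 times and 24 by less. With medians of 42 and 39 reads a region in pOC against BMM, single levels have wide intervals.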

Other observations

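The remaining gene groups of the locus held regions of the same main directions. Genes of the Ly6 and G6 group, small surface proteins of the class III stretch, held 3 regions in 2 of 7 members in pOC against BMM, all lower in pOC, and 3 in mOC against pOC, all higher. Ly6g5c was at 51.7% (116 reads) in pOC and 80.2% (111 reads) in mOC at 35108401 to 35108800. Framework genes around H2-K1 held 4 regions in 4 of 9 members, all lower in pOC, among them Col11a2, a collagen XI chain, at 82.6% in BMM (86 reads), 53.4% in pOC (73 reads) and 83.5% in mOC (91 reads) at 34048001 to 34048200.

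The other class III genes held 24 regions in 10 of 18 members in pOC against BMM, 22 lower and 2 higher. Csnk2b, the regulatory subunit of casein kinase 2, held both: 35119201 to 35119400 was at 82.8% in BMM, 33.3% in pOC and 81.0% in mOC, and 35120201 to 35120400 was at 3.33% of 30 reads in BMM and 29.4% of 17 reads in pOC. The collagen receptor gene Ddr1 was at 71.6% in BMM (67 reads), 34.0% in pOC (53 reads) and 76.4% in mOC (55 reads) at 35699201 to 35699400. Far from any class I gene body, 12638 bp from H2-Q10, the region 35487201 to 35487400 was at 80.0%, 26.8% and 75% in the 3 libraries, with 30, 56 and 24 reads.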
